A study of Mus musculus with 10 samples.

Results

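The genes described here encode the alarmin interleukin-33, its receptor chains and further fibroblast factors that sustain group 2 innate lymphoid cells (ILC2s): Il33, Il1rl1, Il1rap, Il1r1, Tslp, Il7 and Kitl. They were chosen by name, 7 of the 22731 genes of the deposited count table, and were matched to its Ensembl identifiers by symbol. All 7 were present, and all 7 passed the filter on low counts that left 16344 genes. Bulk RNA sequencing was done on mouse fibroblasts in 10 libraries. Of these, 3 were of fibroblasts cocultured with IL13KO ILC2s, which cannot make interleukin-13 by their label, 3 of fibroblasts cocultured with WT ILC2s, and 4 of fibroblasts in monoculture. The fibroblasts of every group carry the genotype label C57B6, so the knockout is in the ILC2s alone. Fibroblasts were sorted as live cells positive for Pdpn and Pdgfra and negative for CD45, Epcam and CD31. ILC2s were sorted as KLRG1+ CD45+ cells lacking CD3, B220 and lineage markers. After coculture the fibroblasts were sorted again. The gate for that sort is written in the design text with CD45+, which a fibroblast should lack. The series title places the study in the pancreas, with a Pi16+ progenitor niche as its subject. The labels name no animal, culture or day for a library, so p-values measure only the spread between these samples, which may be technical.

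Interleukin-33 is a member of the interleukin-1 family that is held in the nucleus of stromal and barrier cells and is released when they are damaged. It binds ST2, the product of Il1rl1, which pairs with the accessory chain IL1RAP and signals through MyD88; ST2 also exists as a soluble form that binds the cytokine without signalling. IL1RAP is shared with IL1R1, the receptor of interleukin-1. ILC2s are tissue-resident lymphocytes that carry ST2, respond to interleukin-33, TSLP and interleukin-7, and make interleukin-5 and interleukin-13. Stem cell factor, the product of Kitl, acts through the receptor KIT.

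The deposited values are whole-number read counts per gene. The total per library was 17277432 to 17661229 counts for IL13KO cocultures, 18801744 to 22087459 counts for WT cocultures and 10710410 to 14366199 counts for monocultures. A gene with 3 counts would stand at 0.170 to 0.171 CPM (counts scaled to library size, normalised by TMM in edgeR) in an IL13KO coculture, at 0.135 to 0.162 CPM in a WT coculture and at 0.211 to 0.277 CPM in a monoculture. These floors cover counting error only. The WT coculture libraries are numbered 1, 3 and 4 in the count table. Il13 checked the label of the knockout: the 3 IL13KO cocultures had 0 reads each, the WT cocultures 30, 120 and 121, and the 4 monocultures 0 each. The sort genes Pdgfra and Pdpn were present in every library, with group means of 747 CPM of Pdgfra in IL13KO cocultures, 633 CPM in WT cocultures and 372 CPM in monocultures. In bulk RNA, fewer cells of a kind and less RNA per cell cannot be told apart, here and in every result that follows.

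In both cocultures 4 of the 7 genes, Il1rl1, Il1rap, Il1r1 and Kitl, stood at higher levels than in the monocultures, and the gene of the interleukin-33 receptor, Il1rl1, separated WT from IL13KO cocultures. In WT cocultures against monocultures, 5 of 7 were called at an edgeR adjusted p below 0.05: Il1rl1, Il1rap, Il1r1 and Kitl rose and Tslp fell. Over all genes tested in that comparison, 62.5% were called, 32.8% as higher and 29.7% as lower. In IL13KO cocultures against monocultures, Il33, Il1rl1, Il1rap, Il1r1 and Kitl rose, 5 of 7, and none of the 7 was called lower. The share called over all genes there was 57.4%, with 30.1% higher and 27.3% lower. In IL13KO against WT cocultures, 3 of 7 were called: Il33 and Il1r1 were higher and Il1rl1 was lower. All genes gave 23.3% called in this comparison, 11.7% higher and 11.6% lower. In both comparisons with monocultures, which share the same 4 libraries, 5 of 7 is near the share of all genes, so those counts say nothing particular to the set. The median log2 fold change of the 7 was 0.53 for WT cocultures over monocultures, 0.90 for IL13KO cocultures over monocultures and 0.38 for IL13KO over WT cocultures, beside medians over all genes tested of 0.015, 0.0017 and 0.0042.

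**Figure D1:**
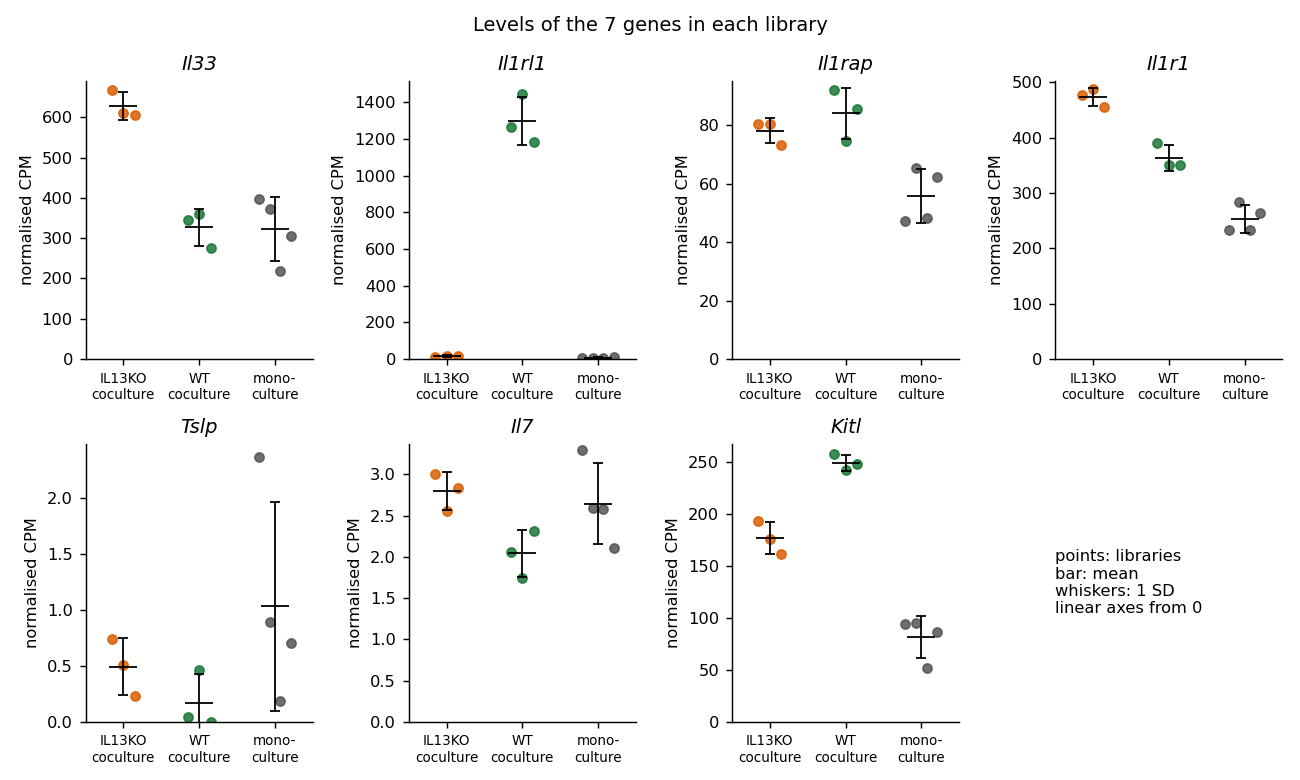
Level of each of the 7 genes in every library, as TMM-normalised CPM on linear axes that start at 0. Points are libraries (3 IL13KO cocultures, 3 WT cocultures, 4 monocultures), the bar is the mean and the whiskers are 1 SD; the lowest IL13KO coculture stood at 605 CPM of Il33, and the lowest WT coculture at 1184 CPM of Il1rl1.

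Il33 (ENSMUSG00000024810) lies on chromosome 19, at 29925114 to 29960718 on the plus strand of GRCm38, and encodes the ligand itself. IL13KO cocultures had 667, 610 and 605 CPM, WT cocultures 346, 360 and 275 CPM, and monocultures 397, 372, 218 and 304 CPM. Each IL13KO coculture exceeded each other library, whereas the WT cocultures lay inside the range of the monocultures. Means were 627 ± 34.6 CPM in IL13KO cocultures, 327 ± 45.7 CPM in WT cocultures and 323 ± 80.2 CPM in monocultures (SD, n = 3, 3 and 4). Il33 was 1.94-fold higher in IL13KO cocultures than in monocultures, a log2 fold change of 0.96 ± 0.17 (SE, edgeR adjusted p = 0.000374). Against WT cocultures the IL13KO cocultures were 1.92-fold higher, 0.94 ± 0.18 (edgeR adjusted p = 0.00265). Between WT cocultures and monocultures the log2 fold change was 0.02 ± 0.17 (edgeR adjusted p = 0.934). That value depends on the processing: with the trend of fold change on GC content and transcript length taken out, it became 0.47 and was called (edgeR adjusted p = 0.0109), whereas it was -0.10 with upper-quartile scaling. The 2 comparisons of the IL13KO cocultures kept their calls. Transcripts of the 7 genes have a GC content of 39.0% to 43.9%, against a median of 49.6% over all genes tested.

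Il1rl1 (ENSMUSG00000026069; chromosome 1, 40429570 to 40465415, plus strand, GRCm38) encodes ST2, the chain that binds interleukin-33. The IL13KO cocultures had 221, 332 and 299 reads of it, the WT cocultures 28232, 28200 and 21967, and the monocultures 87, 90, 54 and 122. As CPM these are 12.5, 18.9 and 16.9 in IL13KO cocultures, 1267, 1445 and 1184 in WT cocultures, and 7.35, 6.66, 4.98 and 8.58 in monocultures. No 2 groups overlapped, and the order of the levels was WT cocultures, IL13KO cocultures, monocultures, with each step larger than the spread within groups. In WT cocultures the mean of 1299 ± 133 CPM was 187-fold that of monocultures, 6.89 ± 1.501 CPM, a log2 fold change of 7.55 ± 0.17 (edgeR adjusted p = 6.24e-11). It ranked 2 of 16344 genes by p and 37 by size of rise in that comparison. In IL13KO cocultures the mean was 16.1 ± 3.25 CPM, 2.32-fold that of monocultures, a log2 fold change of 1.21 ± 0.18 (edgeR adjusted p = 8.2e-05). Set against WT cocultures, Il1rl1 was 80.5-fold lower in IL13KO cocultures, a log2 fold change of -6.33 ± 0.17 (edgeR adjusted p = 2.86e-09). That was the smallest p of the 16344 genes and the fall ranked 10 by size. The counts are per gene over 5 annotated transcripts, so membrane ST2 and soluble ST2 are counted together.

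RefSeq gives Il1rl1 a pair of start sites 10.06 kb apart, and Il33 a pair 20.68 kb apart. The windows of 300 bases around them, 250 before to 50 after the start, are printed for the start sites of Il1rl1, the gene with the largest differences among the 7, and for the first start site of Il33, the only window searched that held a motif. Capitals mark that motif, and windows are read 5′ to 3′ on the plus strand of GRCm38.p6.
Il1rl1, first start site, chr1:40429320-40429619: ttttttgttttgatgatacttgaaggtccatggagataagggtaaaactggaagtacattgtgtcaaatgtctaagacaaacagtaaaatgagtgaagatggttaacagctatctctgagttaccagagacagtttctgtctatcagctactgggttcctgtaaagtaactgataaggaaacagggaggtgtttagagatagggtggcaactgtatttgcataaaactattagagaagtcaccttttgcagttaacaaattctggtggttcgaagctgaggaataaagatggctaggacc
Il1rl1, second start site, chr1:40439379-40439678: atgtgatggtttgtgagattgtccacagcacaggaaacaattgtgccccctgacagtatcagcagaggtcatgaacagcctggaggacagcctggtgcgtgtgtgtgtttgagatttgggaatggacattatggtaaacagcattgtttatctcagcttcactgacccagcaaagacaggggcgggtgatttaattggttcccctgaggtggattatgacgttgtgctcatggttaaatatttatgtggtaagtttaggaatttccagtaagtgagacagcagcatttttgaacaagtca
Il33, first start site, chr19:29924863-29925162: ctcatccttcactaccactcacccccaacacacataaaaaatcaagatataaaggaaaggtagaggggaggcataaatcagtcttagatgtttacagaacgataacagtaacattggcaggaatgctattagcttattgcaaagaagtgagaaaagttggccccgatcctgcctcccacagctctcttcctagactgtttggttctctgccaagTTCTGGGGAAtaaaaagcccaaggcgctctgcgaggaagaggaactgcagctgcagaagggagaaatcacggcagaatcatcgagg

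Motifs were searched on both strands in 8 RefSeq windows of 5 genes of the set (Il33, Il1rl1, Il1rap, Il1r1 and Kitl). Tslp was left out of this search, and no promoter sequence was at hand for Il7. A STAT6-type motif, TTCNNNNGAA, was held by 6.95% of 32851 RefSeq promoter windows. A STAT5-type motif, TTCNNNGAA, was held by 8.3%, an AP-1 motif, TGANTCA with C or G at the free base, by 5.2%, and an NF-kB-type motif, GGGNNTTTCC, by 1.63%. The single match in the 8 windows was the STAT6-type TTCTGGGGAA of Il33, which ends 27 bases before the start site. Neither window of Il1rl1 held any of these letters. A match is a description of the letters, and the windows without one say nothing of binding elsewhere.

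Because ILC2s themselves carry ST2, the markers of ILC2s and leukocytes are set beside Il1rl1. For Ptprc, the gene of CD45, the IL13KO cocultures had 0, 1 and 0 reads, the WT cocultures 6, 3 and 9, and all monocultures 0. Klrg1, the marker of the ILC2 sort, had 4, 1 and 0 reads in the IL13KO cocultures, 0, 6 and 10 in the WT cocultures and 0 in the monocultures. Il5 had 30, 64 and 12 reads in the IL13KO cocultures, 80, 265 and 371 in the WT cocultures and 0 in the monocultures. Il1rl1 had at least 21967 reads in each WT coculture, in which Ptprc and Klrg1 had at most 10 reads.

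The other markers did not all follow one order of groups. Cd53, a leukocyte tetraspanin, had 223, 334 and 309 reads in the IL13KO cocultures, 2059, 2084 and 2073 in the WT cocultures and 40, 29, 43 and 43 in the monocultures. Its log2 fold change was 5.06 for WT cocultures over monocultures and -2.66 for IL13KO over WT cocultures. Gata3, which encodes the transcription factor of ILC2s, had 45, 65 and 32 reads in the IL13KO cocultures, 95, 110 and 95 in the WT cocultures and 13, 19, 8 and 31 in the monocultures. Rora, another transcription factor gene of the ILC2 list, ran the other way, with 55.2 CPM in IL13KO cocultures, 41.7 CPM in WT cocultures and 63.7 CPM in monocultures (-0.61 ± 0.11 in WT cocultures over monocultures, edgeR adjusted p = 0.000407), and Il17rb had 7, 6 and 8 reads in IL13KO cocultures, 3, 2 and 1 in WT cocultures and 0, 3, 4 and 0 in monocultures. Of 12 ILC2 markers, 11 had a row, and their summed level was 300.3 to 338 CPM in IL13KO cocultures, with Il7r and Il13 at 0, against 424 to 462 CPM in WT cocultures, and 171 to 234 CPM in monocultures, with Ptprc, Klrg1, Il7r, Il13 and Il5 at 0. Most of that sum is Thy1 and Rora, which the monocultures also express. Thy1 averaged 255 CPM in IL13KO cocultures, 371 CPM in WT cocultures and 136 CPM in monocultures. It gave 1.45 ± 0.14 in WT cocultures over monocultures (edgeR adjusted p = 1.55e-06). In IL13KO over WT cocultures Thy1 gave -0.54 ± 0.14 (edgeR adjusted p = 0.0168, and 0.0598 with the replicate block). Of 6 tested ILC2 markers, 5 were called higher and 1 lower in WT cocultures over monocultures, against 32.8% and 29.7% of all genes. Il2ra, of the same list, had 9, 74 and 4 reads in IL13KO cocultures and 15, 45 and 42 in WT cocultures. The monocultures had 1 read of Il2ra in all. Between IL13KO and WT cocultures its log2 fold change was -0.075 ± 0.79 (edgeR adjusted p = 0.961). The 7 pan-leukocyte markers summed to 14.1 to 22.1 CPM in IL13KO cocultures, 95.4 to 119 CPM in WT cocultures and 2.89 to 6.61 CPM in monocultures, with Ptprc, Laptm5 and Rac2 at 0 in the monocultures; Cd53 gave most of the sum in the cocultures. The part of carried-over ILC2 RNA in the Il1rl1 counts was not tested.

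**Figure D2:**
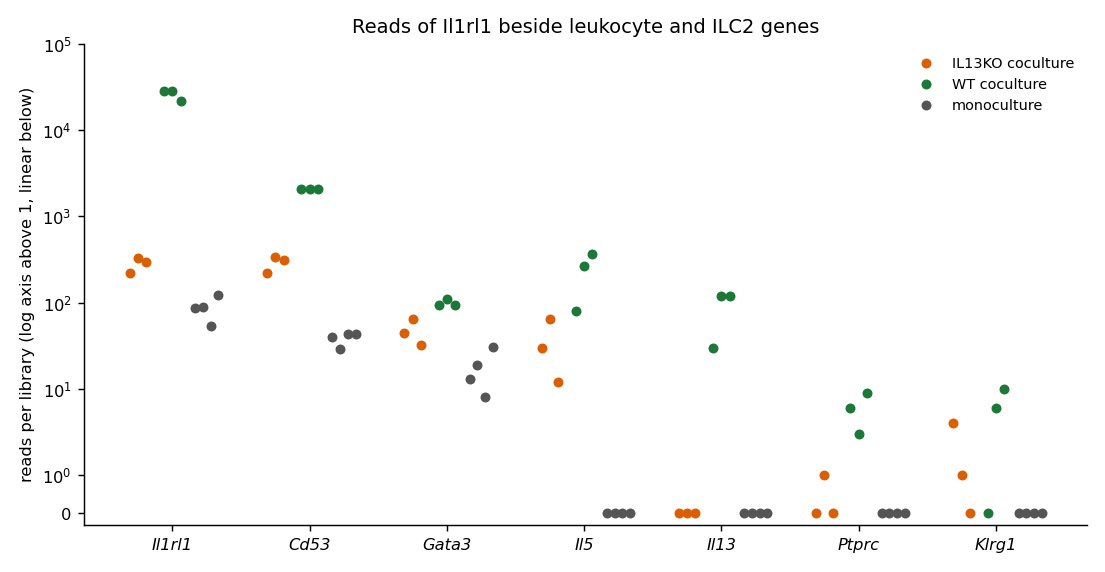
Reads per library of Il1rl1 beside leukocyte and ILC2 genes, on an axis that is logarithmic above 1 and linear below; each point is 1 library of the IL13KO cocultures, WT cocultures or monocultures. In the WT cocultures Il1rl1 has 21967 to 28232 reads, Cd53 2059 to 2084, and Ptprc and Klrg1 at most 10.

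Il1rap (ENSMUSG00000022514; chromosome 16, 26581704 to 26730117, plus strand) encodes the accessory chain that ST2 and IL1R1 share. Its level was 80.5, 80.5 and 73.1 CPM in IL13KO cocultures, 91.9, 74.7 and 85.5 CPM in WT cocultures and 47.4, 65.4, 48.2 and 62.2 CPM in monocultures. Both cocultures lay above every monoculture and overlapped each other. Il1rap rose in IL13KO cocultures by a log2 fold change of 0.48 ± 0.13 over monocultures (edgeR adjusted p = 0.00621). In WT cocultures it rose by 0.59 ± 0.13 (edgeR adjusted p = 0.0014). Between IL13KO and WT cocultures the log2 fold change was -0.11 ± 0.14, with a 95% interval of -0.38 to 0.16 (edgeR adjusted p = 0.622). A gene on the opposite strand, Gm20319, covers 4.86% of its exon bases, and whether the authors counted by strand is not given in the sources used here.

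Il1r1 (ENSMUSG00000026072; chromosome 1, 40225080 to 40317257, plus strand) encodes the signalling receptor of interleukin-1 and lies in the same cluster as Il1rl1. Its level was 476, 487 and 455 CPM in IL13KO cocultures, 391, 350 and 351 CPM in WT cocultures and 232, 283, 233 and 263 CPM in monocultures. The 3 groups did not overlap, in the order IL13KO cocultures, WT cocultures, monocultures. Over monocultures, Il1r1 rose by a log2 fold change of 0.90 ± 0.09 in IL13KO cocultures (edgeR adjusted p = 6.28e-06), and by 0.53 ± 0.09 in WT cocultures (edgeR adjusted p = 0.000277). The step between them was smaller, with IL13KO over WT cocultures at 0.38 ± 0.10 (edgeR adjusted p = 0.0148). This last call was lost when any of 4 libraries was left out: edgeR adjusted p = 0.0729 without WT coculture 3, 0.0624 without WT coculture 4, 0.056 without IL13KO coculture 1 and 0.0676 without IL13KO coculture 2.

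RNA of the genes of the receptor chains was also compared within each library on a scale per exon length, where a ratio does not depend on library scaling. Il1rl1 stood at 0.256, 0.386 and 0.382 of the length-corrected level of Il1rap in IL13KO cocultures, 22.7, 31.9 and 22.8 times it in WT cocultures, and 0.256, 0.168, 0.170 and 0.227 of it in monocultures. The length-corrected RNA of Il1rl1 thus exceeded that of Il1rap in the 3 WT cocultures and lay below it in the other 7 libraries. The size of the ratio depends on the length used. With all exons, WT cocultures averaged 480 TPM (level per length) of Il1rl1 and 18.9 TPM of Il1rap. With the longest transcript these were 497 and 37.9 TPM. The median ratio of Il1rl1 to Il33 was 0.0117 in IL13KO cocultures, 1.68 in WT cocultures and 0.00866 in monocultures, so only in the WT cocultures was there more length-corrected RNA of the receptor gene than of the ligand gene. Il1r1 to Il1rap had a median ratio of 10.8 in IL13KO cocultures, 7.59 in WT cocultures and 8.17 in monocultures. The IL13KO cocultures were at 10.6 to 11.1, above the 7.32 to 8.75 of all other libraries.

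Kitl (ENSMUSG00000019966; chromosome 10, 100015630 to 100100416, plus strand) encodes stem cell factor, the ligand of KIT, in membrane-bound and secreted forms that gene-level counts do not separate. Its level was 193, 176 and 162 CPM in IL13KO cocultures, 258, 242 and 248 CPM in WT cocultures and 94.1, 94.7, 51.6 and 86.5 CPM in monocultures. The groups did not overlap: WT cocultures were highest, then IL13KO cocultures, then monocultures. Means were 177 ± 15.7 CPM in IL13KO cocultures, 249 ± 7.63 CPM in WT cocultures and 81.8 ± 20.4 CPM in monocultures (SD). Over monocultures, Kitl rose 2.16-fold in IL13KO cocultures, a log2 fold change of 1.11 ± 0.17 (edgeR adjusted p = 0.000109), and 3.05-fold in WT cocultures, 1.61 ± 0.17 (edgeR adjusted p = 3.68e-06). IL13KO over WT cocultures gave -0.49 ± 0.18, which did not pass the threshold (edgeR adjusted p = 0.0608), although no library of one lay within the range of the other. It passed when monoculture 1 or monoculture 3, the library with the lowest Kitl level, was left out (edgeR adjusted p = 0.0417 and 0.0017), and in DESeq2 (adjusted p = 0.0439) and limma-voom (adjusted p = 0.0298).

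Il7 (ENSMUSG00000040329; chromosome 3, 7569994 to 7613760, minus strand) encodes interleukin-7, the cytokine that keeps lymphocytes alive through the receptor IL7R. It was scarce, with 53, 45 and 50 reads in IL13KO cocultures, 46, 34 and 43 in WT cocultures and 39, 35, 28 and 30 in monocultures. Mean levels were 2.80 ± 0.226 CPM in IL13KO cocultures, 2.04 ± 0.288 CPM in WT cocultures and 2.64 ± 0.488 CPM in monocultures (SD). No comparison passed the threshold: the log2 fold change was 0.09 ± 0.24 for IL13KO cocultures over monocultures (edgeR adjusted p = 0.777), -0.37 ± 0.24 for WT cocultures over monocultures (edgeR adjusted p = 0.205) and 0.46 ± 0.25 for IL13KO over WT cocultures (edgeR adjusted p = 0.224). All 3 IL13KO cocultures lay above all 3 WT cocultures in CPM. An opposite-strand gene, Gm16685, overlaps 1.85% of its exon bases.

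Tslp (ENSMUSG00000024379; chromosome 18) encodes thymic stromal lymphopoietin, a cytokine of epithelial and stromal cells that acts on ILC2s. It was close to the limit of these libraries, with 13, 9 and 4 reads in IL13KO cocultures, 1, 9 and 0 in WT cocultures and 28, 12, 2 and 10 in monocultures. The groups overlapped, and the counts are too few to place a difference firmly. Tslp was called lower in WT cocultures than in monocultures, with a log2 fold change of -2.58 ± 1.001 (edgeR adjusted p = 0.0287). That call was lost without WT coculture 1 (-2.10, edgeR adjusted p = 0.121), WT coculture 4 (-2.03, 0.0987) or monoculture 1 (-1.83, 0.0963), and the fold change was -5.03 without WT coculture 3 (0.00614). IL13KO cocultures differed from monocultures by -1.06 ± 0.83 (edgeR adjusted p = 0.284), and from WT cocultures by 1.52 ± 1.08 (edgeR adjusted p = 0.319), neither past the threshold.

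**Figure D3:**
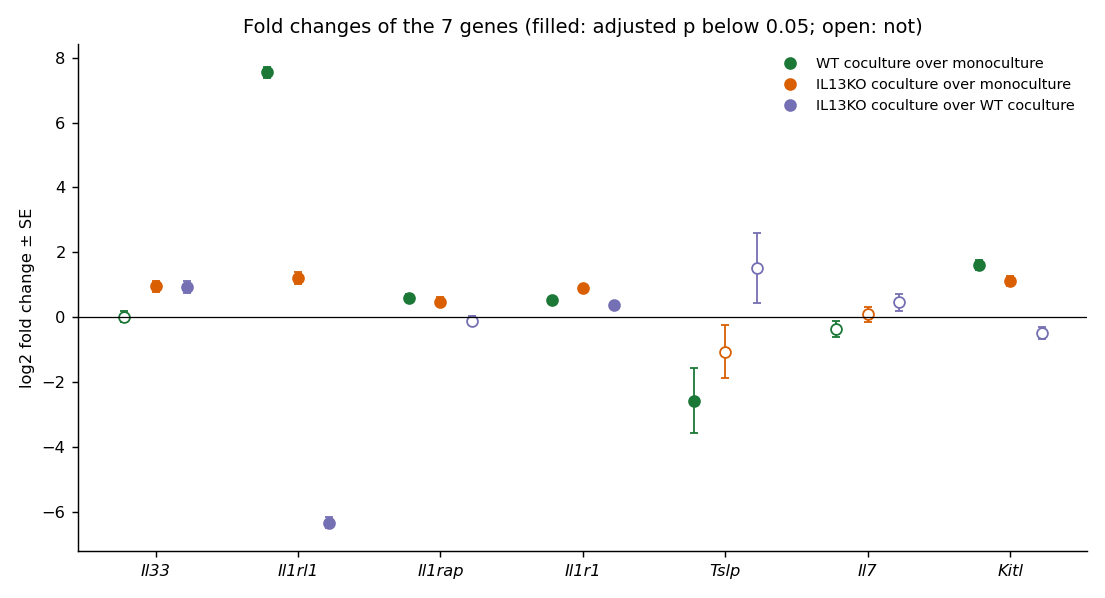
Log2 fold change (first group over second) of the 7 genes in the 3 comparisons, with whiskers of 1 SE; filled symbols have an edgeR adjusted p below 0.05. Il1rl1 stands at 7.55, 1.21 and -6.33, while the other called values lie between -2.58 and 1.61.

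On a scale per exon length (TPM, counts divided by summed exon length and scaled to 1 total in every library) the 7 genes can be set against each other. In IL13KO cocultures the mean level was 582 TPM for Il33, 199 for Il1r1, 80.2 for Kitl, 18.4 for Il1rap, 6.27 for Il1rl1, 1.32 for Il7 and 0.988 for Tslp. In WT cocultures Il1rl1 led with 480 TPM, ahead of Il33 at 289, Il1r1 at 146, Kitl at 108, Il1rap at 18.9, Il7 at 0.918 and Tslp at 0.317 TPM. In monocultures Il33 led with 254 TPM, followed by Il1r1 at 90.4, Kitl at 31.4, Il1rap at 11.2, Il1rl1 at 2.27, Tslp at 1.76 and Il7 at 1.06 TPM. The first 5 places were in the same order in IL13KO cocultures and in monocultures, and in WT cocultures Il1rl1 stood ahead of all others. The order of the last pair, Tslp and Il7, is not resolved, because the ranges of the 2 genes overlap in the monocultures. Il1rap is set by its length: with the longest transcript in place of all exons it stood at 36.8 TPM in IL13KO cocultures, 37.9 TPM in WT cocultures and 22.4 TPM in monocultures, still below the mean of Kitl in each group.

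**Figure D4:**
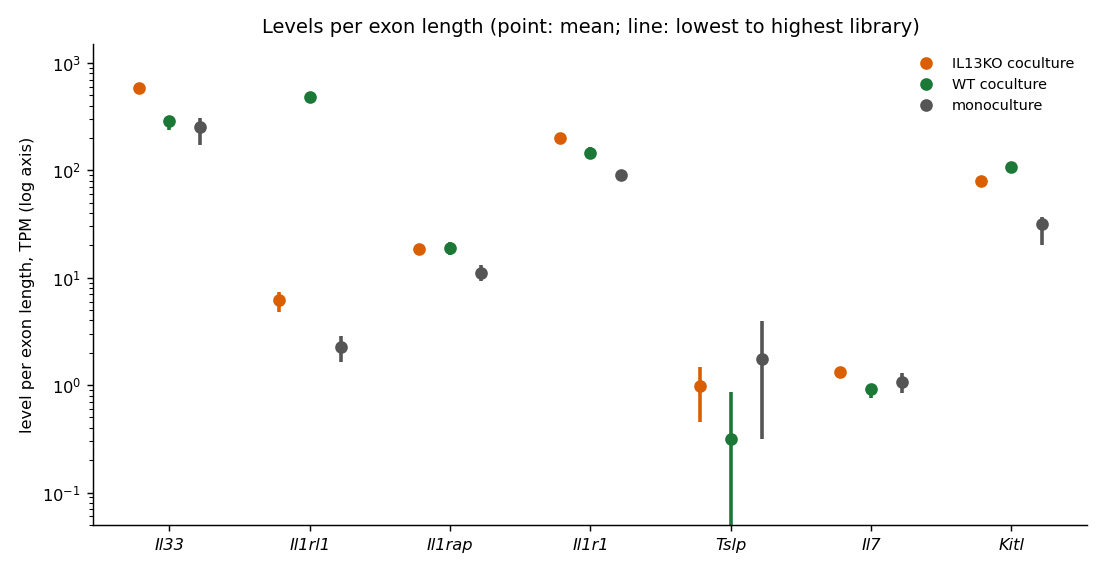
Level per exon length (TPM, log axis) of the 7 genes: points are the means of the IL13KO cocultures, WT cocultures and monocultures, and lines run from the lowest to the highest library. Il1rl1 averages 6.27, 480 and 2.27 TPM in these groups; the line of Tslp in WT cocultures leaves the axis because 1 library had 0 reads.

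Il1rl1 and Il1r1 lie in a cluster of receptor genes of the interleukin-1 family, and the other genes whose bodies reach within 500 kb of either end of Il1rl1 were examined. Il1rl2, the receptor gene of interleukin-36, starts 105.0 kb upstream and rose in both cocultures over monocultures, by a log2 fold change of 0.86 ± 0.14 in IL13KO cocultures (edgeR adjusted p = 0.000149) and 0.69 ± 0.14 in WT cocultures (edgeR adjusted p = 0.000631). It did not differ past the threshold between IL13KO and WT cocultures (0.17 ± 0.14, edgeR adjusted p = 0.422). Il1r2, the gene of the decoy receptor, was at 3.95 CPM in IL13KO cocultures, 4.41 CPM in WT cocultures and 4.34 CPM in monocultures, with no call. Il18rap, 85.8 kb downstream, had 13 reads in all IL13KO cocultures, 9 in all WT cocultures and 0 in the monocultures, and was not tested. Map4k4, a kinase gene that starts at -528.7 kb, fell in both cocultures (-1.57 ± 0.20 in IL13KO cocultures, edgeR adjusted p = 4.32e-05, and -1.51 ± 0.20 in WT cocultures, edgeR adjusted p = 3.59e-05). Mfsd9, a transporter gene on the other side, was called in no comparison. Among the tested protein-coding genes of this window other than Il1rl1, Il1r1 was the only gene called between IL13KO and WT cocultures.

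**Figure D5:**
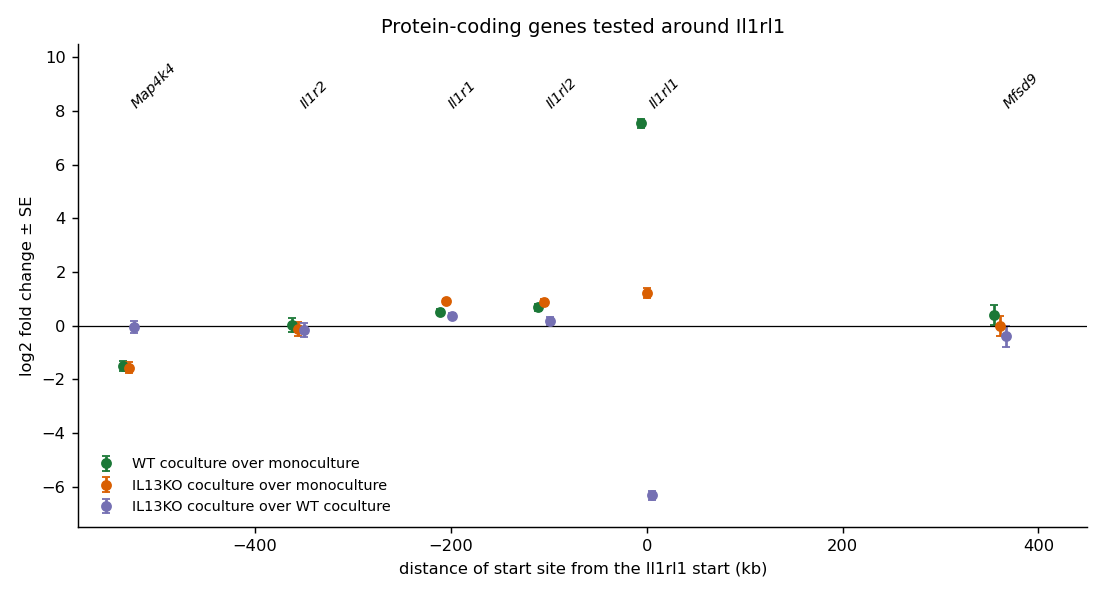
Log2 fold change (first group over second, whiskers 1 SE) of the tested protein-coding genes around Il1rl1, placed by the distance of their start site from that of Il1rl1 in kb. Il1rl1 stands at 7.55, 1.21 and -6.33, and its neighbours lie between -1.57 and 0.90.

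The other genes of the pathway were counted in lists. Of 9 interleukin-1 family ligands and antagonists, 3 were tested, and all 3 were called lower than monocultures in both cocultures, where 27.3% of all genes were called lower in IL13KO cocultures and 29.7% in WT cocultures. Il1rn, the receptor antagonist of interleukin-1, had 56, 52 and 59 reads in IL13KO cocultures, 4, 10 and 13 in WT cocultures and 79, 119, 73 and 221 in monocultures. Its log2 fold change was -1.58 ± 0.34 for IL13KO cocultures over monocultures (edgeR adjusted p = 0.00169), -4.37 ± 0.45 for WT cocultures over monocultures (edgeR adjusted p = 2.57e-06) and 2.78 ± 0.48 for IL13KO over WT cocultures (edgeR adjusted p = 0.000816). With a replicate block and the trend on GC and length taken out, its value in IL13KO cocultures over monocultures was -0.74 (edgeR adjusted p = 0.0405). Il18, a cytokine of the same family, fell by a log2 fold change of 1.20 ± 0.26 in IL13KO cocultures (edgeR adjusted p = 0.00166), with -2.10 ± 0.27 in WT cocultures (edgeR adjusted p = 2.73e-05). The IL13KO call of Il18 was lost under the same pair of changes (-0.71, edgeR adjusted p = 0.0905). Il18bp, its soluble antagonist, gave -0.73 ± 0.24 in IL13KO cocultures (edgeR adjusted p = 0.0226) and -1.005 ± 0.245 in WT cocultures (edgeR adjusted p = 0.00326). The IL13KO call of Il18bp was lost without IL13KO coculture 1 (edgeR adjusted p = 0.0699), IL13KO coculture 2 (0.092) or monoculture 3 (0.0536).

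The signalling chain below ST2 and IL1R1 was a list of 16 genes, and all 16 were tested. In IL13KO cocultures over monocultures 6 were called higher and 5 lower (median log2 fold change 0.17), against 57.4% called over all genes. In WT cocultures over monocultures 5 were higher and 8 lower (median -0.29), against 62.5% called over all genes. In IL13KO over WT cocultures 4 were higher and none lower, against 23.3% of all genes called. The median there was 0.19, beside 0.0042 over all genes tested. Those 4 were Peli2, a ubiquitin ligase of the pathway (1.22 ± 0.17, edgeR adjusted p = 0.000324), Ikbkg, a subunit of the IKK complex (0.48 ± 0.14, edgeR adjusted p = 0.026), Myd88, the adaptor of the receptors (0.42 ± 0.14, edgeR adjusted p = 0.0378), and Irak2, a receptor-associated kinase (0.41 ± 0.14, edgeR adjusted p = 0.0474). The count of 4 fell to 1, Peli2, when any single coculture library was left out, as with WT coculture 1 (edgeR adjusted p = 0.0587 for Ikbkg, 0.0683 for Myd88 and 0.143 for Irak2), and also with the replicate block. Over monocultures, Peli2 gave -1.73 ± 0.16 in WT cocultures (edgeR adjusted p = 2.38e-06). Peli1, of the same family, fell in both cocultures, with -0.81 ± 0.11 in IL13KO cocultures (edgeR adjusted p = 4.76e-05) and -0.997 ± 0.107 in WT cocultures (edgeR adjusted p = 5.94e-06).

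Irak2 gave -0.90 ± 0.13 in WT cocultures over monocultures (edgeR adjusted p = 5.91e-05), and -1.50 without the GC and length trend. Tab2, an adaptor of the kinase TAK1, gave -0.71 ± 0.15 in IL13KO cocultures over monocultures (edgeR adjusted p = 0.00129). Tab1, which activates that kinase, gave 1.79 ± 0.29 in IL13KO cocultures (edgeR adjusted p = 0.00017) and 2.22 ± 0.28 in WT cocultures (edgeR adjusted p = 1.97e-05), and without the trend 0.46 (edgeR adjusted p = 0.143) and 1.07 (edgeR adjusted p = 0.00166). Ikbkb, the catalytic IKK subunit, gave 0.87 ± 0.14 in IL13KO cocultures over monocultures (edgeR adjusted p = 0.000138), and without the trend 0.10 (edgeR adjusted p = 0.61). Without the trend the list stood at 1 higher and 6 lower in IL13KO cocultures, 3 higher and 8 lower in WT cocultures and 2 higher and none lower between the cocultures, against 46.3%, 57.8% and 26.2% of all genes called in these comparisons.

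Of the 4 receptor genes of TSLP, interleukin-7 and stem cell factor, Il2rg and Crlf2 were tested. Il7r had 5 reads, all in WT coculture 4, and Kit had too few reads to be tested. Il2rg, the common gamma chain of the interleukin-7 receptor and a lymphocyte gene, had 22, 16 and 11 reads in IL13KO cocultures, 49, 57 and 78 in WT cocultures and 10, 6, 7 and 13 in monocultures. It was higher in WT cocultures than in monocultures (2.11 ± 0.38, edgeR adjusted p = 0.000256) and lower in IL13KO than in WT cocultures (-1.73 ± 0.38, edgeR adjusted p = 0.00509; -1.43, 0.0609 with the replicate block). IL13KO cocultures overlapped the monocultures (0.38 ± 0.41, edgeR adjusted p = 0.445). Crlf2, the TSLP receptor chain, was at 18.8 CPM in IL13KO cocultures, 13.0 CPM in WT cocultures and 11.4 CPM in monocultures. Its rise over monocultures in IL13KO cocultures, 0.73 ± 0.22 (edgeR adjusted p = 0.0134), turned to -0.39 (edgeR adjusted p = 0.0468) once the trend on GC and length was taken out, and lost its call without IL13KO coculture 2 (edgeR adjusted p = 0.0542).

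Of 18 other stromal factors that act on ILC2s, 11 were tested. In IL13KO cocultures over monocultures 3 were higher and 1 lower, against 57.4% of all genes called. In WT cocultures over monocultures 3 were higher and 2 lower, against 62.5%, and in IL13KO over WT cocultures 3 were higher and 1 lower, against 23.3%. Between the cocultures the lower calls became 3 without monoculture 1 or monoculture 3 and 2 without IL13KO coculture 1 or monoculture 2, and in IL13KO cocultures over monocultures they became 2 without monoculture 2 and 0 without IL13KO coculture 3. Ptgis, the prostacyclin synthase, rose by a log2 fold change of 1.23 ± 0.20 in IL13KO cocultures (edgeR adjusted p = 0.00022), and by 2.28 ± 0.20 in WT cocultures (edgeR adjusted p = 1.04e-06), and was lower in IL13KO than in WT cocultures (-1.06 ± 0.21, edgeR adjusted p = 0.00335). With the GC and length trend removed the IL13KO value over monocultures was 0.58 (edgeR adjusted p = 0.00318). Icam1, an adhesion molecule for lymphocytes, averaged 64.5 CPM in IL13KO cocultures, 35.0 CPM in WT cocultures and 28.2 CPM in monocultures. It was higher in IL13KO than in WT cocultures, by 0.88 ± 0.14 (edgeR adjusted p = 0.000518), and higher than in monocultures, by 1.20 ± 0.13 (edgeR adjusted p = 8.59e-06; 0.45, 0.0129 without the trend). In WT cocultures over monocultures Icam1 was at 0.31 ± 0.13 (edgeR adjusted p = 0.0493), a call that was lost without any single WT coculture (edgeR adjusted p = 0.0749 to 0.114) and that turned to -0.35 without the trend (edgeR adjusted p = 0.0381). Without the trend the list stood at 4 higher and 2 lower in IL13KO cocultures and at 2 and 2 in WT cocultures over monocultures, and at 4 and 3 between the cocultures, against 46.3%, 57.8% and 26.2% of all genes called.

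Cxcl12, a chemokine of stromal cells, gave 0.35 ± 0.09 in IL13KO cocultures over monocultures (edgeR adjusted p = 0.00618) and 0.64 ± 0.09 in WT cocultures over monocultures (edgeR adjusted p = 6.67e-05). Its direction was not stable: without the GC and length trend these were -0.44 (edgeR adjusted p = 0.00532) and -0.05 (edgeR adjusted p = 0.7). Cxcl16, a membrane-bound chemokine, gave -0.43 ± 0.12 in IL13KO cocultures (edgeR adjusted p = 0.0105; 0.0654 without IL13KO coculture 3), -0.997 ± 0.126 in WT cocultures (edgeR adjusted p = 2.32e-05), and 0.56 ± 0.13 in IL13KO over WT cocultures (edgeR adjusted p = 0.00888). That last call was lost without WT coculture 3 (0.0533) or IL13KO coculture 2 (0.051) and with the replicate block (0.0537). Vcam1, another adhesion molecule, was higher in IL13KO than in WT cocultures, by 0.56 ± 0.12 (edgeR adjusted p = 0.0041). In WT cocultures over monocultures Vcam1 was at -0.48 ± 0.11 (edgeR adjusted p = 0.00202), and at -0.06 without the trend (edgeR adjusted p = 0.715).

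The genes whose pattern over the 10 libraries was most like that of each of the 7 were found by the root mean square difference of log2 CPM, each gene centred on its own mean, among 9134 tested genes that reached an average of 10 CPM in one or more groups. For Il1rl1 they were Gpbar1 (0.57), a bile acid receptor, Col6a5 (0.62), a collagen VI chain, Chil3 (0.68), a chitinase-like protein, Myocd (0.82), a coactivator of smooth muscle genes, and Ptafr (0.94), the receptor of platelet-activating factor. Il1rl1 itself varied by an SD of 3.27 on that scale; reads of Chil3 may be shared with its near-identical copy Chil4. Gpbar1, Col6a5 and Chil3 had 0 reads in all monocultures, and Chil3 also in all IL13KO cocultures. Their log2 CPM in those libraries is set by the prior count of 2, so part of the likeness rests on that floor. For Il33 the closest were Lifr (0.15), a receptor chain for leukemia inhibitory factor, Rgs4 (0.19) and Syt6 (0.20). For Il1r1 they were Pam (0.081), Adam9 (0.095) and Ammecr1l (0.098), and for Il1rap Strada (0.10), Ahcy (0.10) and Map2k1 (0.10). For Kitl they included Pde10a (0.17) and Gnptab (0.21), and for Il7 Teddm2 (0.10), Adamtsl1 (0.14) and Ly6e (0.14). For Tslp, whose counts are few, the closest were Zfp873 (0.72), Enpp2 (0.72) and Gbp2 (0.74).

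Markers of other cells also differed between the groups. Of 8 macrophage and dendritic cell markers, 6 had a row and summed to 43.9 to 51.9 CPM in IL13KO cocultures, 18.5 to 20.6 CPM in WT cocultures and 71.1 to 87.4 CPM in monocultures. Lyz2 averaged 23.8 CPM in IL13KO cocultures, 2.85 CPM in WT cocultures and 53.4 CPM in monocultures, and Cd74 11.7, 3.43 and 17.9 CPM in the same groups. Csf1r of the same list did not follow them, with 12.2 CPM in IL13KO cocultures, 12.9 CPM in WT cocultures and 8.999 CPM in monocultures. Its log2 fold change in WT cocultures over monocultures, 0.52 ± 0.18 (edgeR adjusted p = 0.0214), lost its call without WT coculture 1 (0.0993), monoculture 2 (0.0562) or monoculture 4 (0.0608), and was -0.56 without the GC and length trend (edgeR adjusted p = 0.0134). Lyz2, Cd74 and Csf1r gave nearly all of the sum. Cd68, Mrc1 and Adgre1 of the list were scarce and not tested. Cd68 had 13 reads over all IL13KO cocultures, 25 over all WT cocultures and 9 over all monocultures. In the same groups Mrc1 had 16, 13 and 4 reads, and Adgre1 had 1, 4 and 0. The 6 mural cell markers summed to 76.6 to 96.5 CPM in IL13KO cocultures, 13.4 to 19.9 CPM in WT cocultures and 60.8 to 89.5 CPM in monocultures. Rgs5 gave most of that sum in IL13KO cocultures and monocultures, with means of 57.7 and 51.35 CPM, against 8.54 CPM in WT cocultures. Of 5 tested, 4 were called lower in WT cocultures than in monocultures, against 29.7% of all genes. Notch3 was not (0.23 ± 0.30, edgeR adjusted p = 0.527). The 5 mesothelial markers, of a cell type known to make interleukin-33, summed to 103 to 203 CPM in IL13KO cocultures, 131 to 145 CPM in WT cocultures and 25.03 to 90.9 CPM in monocultures. Wt1 made up most of that sum in the WT cocultures, with a mean of 110 CPM in IL13KO cocultures, 133 CPM in WT cocultures and 30.7 CPM in monocultures. Upk3b varied between libraries of a group, with 499, 1291 and 41 reads in IL13KO cocultures, 4, 110 and 0 in WT cocultures and 14, 0, 498 and 36 in monocultures. Msln had 3, 1 and 0 reads in IL13KO cocultures and 0 in all other libraries. Lrrn4 had 57, 301 and 7 reads in IL13KO cocultures, 0, 59 and 0 in WT cocultures and 0 in all monocultures. It was called in IL13KO cocultures over monocultures (edgeR adjusted p = 0.0107) but not over WT cocultures (edgeR adjusted p = 0.184). Krt19 had 9, 12 and 7 reads in IL13KO cocultures and 19, 21 and 24 in WT cocultures. The monocultures had 1, 0, 6 and 0 reads of Krt19. Endothelial and epithelial markers summed to at most 4.25 CPM in any library. The part of these cells in the levels of the 7 genes was not tested.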

How the data were processed

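Per the labels, fibroblast RNA was prepared with a low-input kit and read from both ends (50 nt). The submitters' processing notes name STAR 2.7.7a and Salmon 1.6.0 on the build GRCm38.p6, with Trimmomatic 0.39, FastQC 0.11.9, Picard and DESeq2; the counter, the annotation and the strand setting are not given in the sources used here. The authors deposited whole-number counts for 22731 genes. A second deposited table holds a normalised signal that equals those counts divided by 1 factor per library, and was not used further. GENCODE annotation of GRCm38 matched 22647 identifiers.

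Genes were filtered with filterByExpr (16344 left), scaled by TMM and tested with edgeR 4.0.16 (R 4.3.3) by its quasi-likelihood test, with a mean for each group over all 10 libraries. Benjamini-Hochberg adjustment ran over all genes tested, and a gene was called below 0.05. The SE comes from the model's information and the moderated quasi-dispersion. The fit was also run on simulated counts in which few genes changed, in WT cocultures alone. Most genes were called in both real comparisons with monocultures, so that setting differs from the data, and no result rests on it. The 3 WT coculture columns carry the numbers 1, 3 and 4 while the titles carry 1 to 3, so they were mapped to the group only. Libraries of a group differed by more than counting error, so none was treated as a repeat sequencing of another. Whether libraries of a group came from the same animal or culture cannot be told from this. Alternatives were RLE and upper-quartile factors, no filter and a filter of 1 CPM in 3 libraries, only the groups compared, a replicate block, removal of the GC and length trend, each library left out, limma-voom (limma 3.58.1) and DESeq2 1.42.0.

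The 7 genes and the lists were chosen with earlier results of these data known. Named by rule were the 7 genes, up to 4 called genes per list and comparison with the smallest adjusted p, the neighbours of Il1rl1, the genes of most similar pattern and the genes of the sort and the knockout. Values of list genes in comparisons where the rule does not name them, of the other marker genes (Thy1, Rora, Il17rb, Upk3b, Cd68, Mrc1, Adgre1) and of Icam1 in WT cocultures were chosen after their values were seen, and not every marker gene that the rule names is described. One of the genes of similar pattern is not reported here.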

Additional observations from a re-analysis of the deposited data

How the results depend on the processing

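Over 20 alternative settings, 395 of 416 values of the 7 genes kept their side of the threshold; 9 gained a call and 12 lost one. The sign turned in 9 values of Il33 in WT cocultures and of Il7 in both cocultures over monocultures, none of them called in either fit. Il33 in WT cocultures over monocultures was called without the GC and length trend (0.47), also with the replicate block added (0.52). Tslp in WT cocultures over monocultures lost its call with the replicate block (-2.40, edgeR adjusted p = 0.0882), with the trend removed (-2.04, 0.0661) and with both (-1.86, 0.163), and ranged from -5.03 to -1.83 with 1 library left out. Il1r1 in IL13KO over WT cocultures lost its call with the replicate block (0.34, edgeR adjusted p = 0.0891) and with block and trend together (0.29, 0.111), and ranged from 0.33 to 0.43 with 1 library left out. Kitl in IL13KO over WT cocultures was called when only the 2 groups were fitted (-0.50, edgeR adjusted p = 0.00123), with the trend removed (-0.54, 0.0122), with block and trend together (-0.58, 0.0186), in limma-voom (-0.50, 0.0298) and in DESeq2 (-0.49, 0.0439), and ranged from -0.56 to -0.44 with 1 library left out. The genes called in IL13KO over WT cocultures, 3810, became 5806 when only the 2 groups were fitted and 2124 with the replicate block, and 2337 to 4814 with 1 library left out, with 2523 without WT coculture 4, 2482 without IL13KO coculture 1 and 2337 without IL13KO coculture 2. Same-numbered libraries did not deviate together (r from -0.126 to 0.028). Whether the numbers pair the samples cannot be told from this, because the WT coculture numbers differ between columns and titles. A weak shared effect of an animal or day could also go unseen. Upper-quartile factors shifted the median of all genes by -0.121 for WT cocultures and -0.104 for IL13KO cocultures over monocultures, and left every call among the 7 in place. The cause of these changes was not tested. Depth limits Tslp, with at most 28 reads in a library, and Il7, with at most 53.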
